A study of Mus musculus with 8 samples.

Results

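The genes of prostaglandin and leukotriene synthesis and response were followed in the mouse cortex under lowered blood flow. The 10 genes, Ptgs1, Ptgs2, Ptges, Ptgds, Hpgds, Tbxas1, Ptger4, Alox5, Alox5ap and Ltc4s, were chosen by symbol from the 54752 genes of the count tables. All 10 passed the filter on low counts, which kept 17136 genes, although Alox5, with 8 counts in sham mouse 1, passed it with the help of the BCAS mice. Bulk RNA-seq was performed on the right cerebral cortex of wild-type male adult C57BL/6 mice (C57BL/6J in the methods) 3 weeks after surgery, with 4 sham mice and 4 mice with bilateral carotid artery stenosis (BCAS), 1 mouse per library. BCAS mice carried a microcoil around each common carotid artery, with the narrower coil on the right, the side that was sequenced, and sham mice had the same operation without coils. All mice were wild type, and the labels name no further treatment. The total counts ranged from 16759364 to 21794435 per library.

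Prostaglandins and leukotrienes are short-range lipid signals made from arachidonic acid, which phospholipases free from membranes. Cyclooxygenases turn it into prostaglandin H2, and terminal synthases convert that into prostaglandin E2, prostaglandin D2 or thromboxane A2. In the other branch, 5-lipoxygenase and its partner protein open the path to leukotrienes. In the brain, these mediators take part in fever, pain, sleep, vessel tone and inflammation, and neurons, microglia and the meninges each carry parts of the pathway.

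In BCAS mice, 8 of the 10 genes were higher than in sham mice and none was lower. These were Ptgs1, Ptges, Hpgds, Tbxas1, Ptger4, Alox5, Alox5ap and Ltc4s, with fitted increases from 2.44-fold for Ptges to 11.7-fold for Tbxas1. Ptgds rose 1.98-fold, just under the fold threshold, and Ptgs2 did not pass the test. Genes were called at an adjusted p under 0.05 and a log2 fold change above 1 in size, by the quasi-likelihood test of edgeR, adjusted over all tested genes by the Benjamini-Hochberg method. At the adjusted p alone, 9 of the 10 genes passed, all of them higher, against 19.2% of all tested genes higher and 12.8% lower. With the fold threshold, 11.0% of all tested genes were called higher and 1.28% were called lower. In 9 of the 10 genes, every BCAS mouse lay above every sham mouse, against 18.5% of all tested genes. The median log2 fold change was 2.55 over the 10 genes and -0.0063 over all tested genes. In bulk tissue, more cells of a type and more RNA per cell cannot be told apart.

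**Figure D1:**
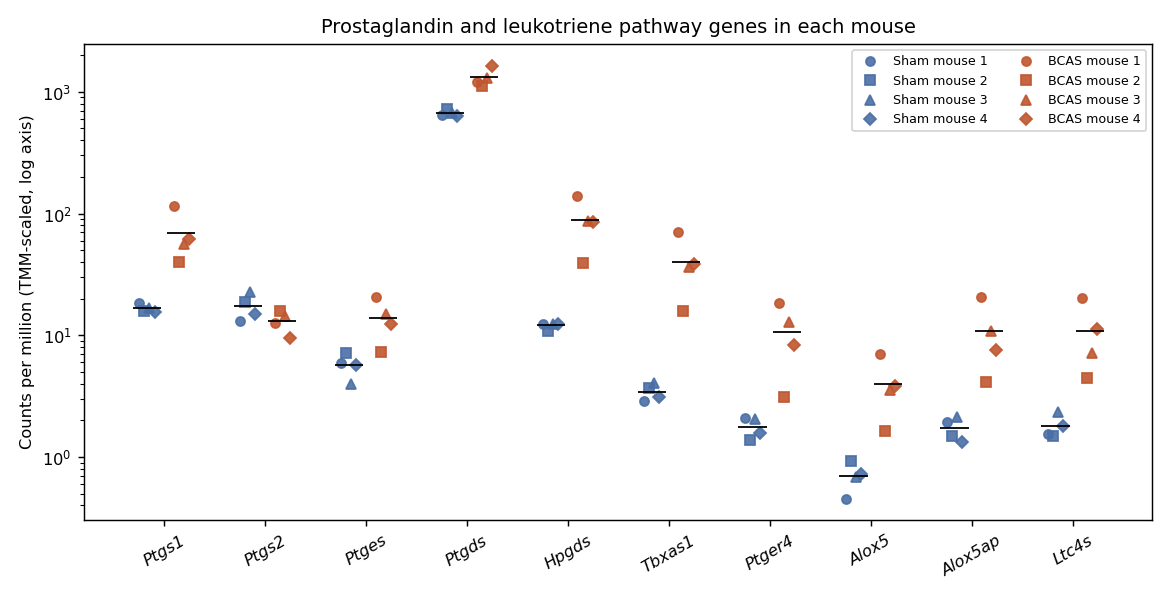
Level of each of the 10 genes in every mouse, as TMM-scaled CPM on a log axis; blue symbols are sham mice, orange symbols are BCAS mice, symbol shape gives the mouse number and black lines are the group means (n = 4 each). The BCAS mice lay above all sham mice for 9 of the genes, whereas the groups overlapped for Ptgs2.

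Reference sequence upstream of the RefSeq start sites is shown as a description, and so that the paired cyclooxygenases can be read side by side. RefSeq start sites on GRCm38.p6 gave the 250 bases upstream of 9 of the 10 genes, all but Alox5ap. Ptgs1 and Ptgs2 are printed whole, on the strand of the gene. Neither of these windows overlaps exons of its own gene, and 73.2% of the Ptgs2 window lies in exons of Ptgs2os. The windows of Ptges, Hpgds, Tbxas1, Ptgds and Ltc4s reach into the longer gene models of GENCODE vM20, in which the gene starts further upstream than in RefSeq. Exons of the gene itself cover 71.2% of the Hpgds window, 37.2% of the Ptgds window, 33.6% of the Ltc4s window and 2.4% of the Tbxas1 window, and exons of Gm42962 cover 56.0% of the Tbxas1 window. Capitals mark GAGGAA or its reverse complement TTCCTC, the core letters that the myeloid transcription factor Spi1 binds.
Ptgs1 (chr2:36230176-36230425, plus strand): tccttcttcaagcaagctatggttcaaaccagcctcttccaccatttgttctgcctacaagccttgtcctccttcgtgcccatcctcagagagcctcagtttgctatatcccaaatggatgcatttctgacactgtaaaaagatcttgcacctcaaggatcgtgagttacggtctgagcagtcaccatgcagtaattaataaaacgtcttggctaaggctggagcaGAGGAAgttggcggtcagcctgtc
Ptgs2 (chr1:150099781-150100030, plus strand): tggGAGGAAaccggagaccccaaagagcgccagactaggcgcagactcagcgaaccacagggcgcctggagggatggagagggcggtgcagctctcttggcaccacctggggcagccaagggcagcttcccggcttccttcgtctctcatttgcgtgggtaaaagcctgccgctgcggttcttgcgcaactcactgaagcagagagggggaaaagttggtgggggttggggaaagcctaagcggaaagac
For 4 further genes, the 30 bases around the same letters are given.
Ptges (chr2:30903429-30903458, minus strand): gggacacctccaTTCCTCtgcttcccaccc
Hpgds (chr6:65144762-65144791, minus strand): ggcttttaggtgGAGGAAgtggcctctggc
Tbxas1 (chr6:38918955-38918984, plus strand): ccctctgcttccTTCCTCtttataaagaaa
Alox5 (chr6:116461297-116461326, minus strand): agagatggggcaGAGGAAcaagggcttcag
GAGGAA, searched on both strands, was present in the windows of 6 of the 9 genes, Ptgs2 and 5 called genes, against 23.1% of the 27025 RefSeq promoters of the same length. It lay between positions -24 and -19 in Ptgs1, -49 and -44 in Hpgds and -19 and -14 in Tbxas1, counted back from the RefSeq start site, and the printed stretches of Ptges, Hpgds and Tbxas1 lie inside the GENCODE vM20 gene. Ptgs2, whose level did not pass the test, also held it, between -247 and -242, and Ptgds, Ptger4 and Ltc4s did not hold it. GGGCGG was present in 4 of the 9, against 32.9% of all promoters, and CCAAT in 1, against 34.5%. TATAAA was present in Tbxas1 alone among the 9, next to the TTCCTC, against 13% of all promoters. TGACGT and CACGTG were in none of the 9, against 6.56% and 6.05% of all promoters. The letters were chosen after the values were seen. These matches therefore only describe letters in a window, and no binding was measured.

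The cyclooxygenases catalyse the entry step, Ptgs1 (COX-1) as the constitutive enzyme and Ptgs2 (COX-2) as the enzyme that neurons express with activity and many cells induce in inflammation. Ptgs1 (ENSMUSG00000047250.13, chr2:36230426-36252272) was present at 18.5, 15.97, 16.7 and 15.6 CPM (a gene's count relative to the TMM-scaled library total) in sham mice 1 to 4 and at 116.4, 39.7, 56.7 and 62.0 CPM in BCAS mice 1 to 4. The mean rose from 16.7 ± 1.29 to 68.7 ± 33.2 CPM (SD, n = 4 each), and even the lowest BCAS mouse was well above the highest sham mouse. Its log2 fold change was 2.04 (SE 0.29, adjusted p = 0.0029, edgeR quasi-likelihood test). Ptgs2 (ENSMUSG00000032487.8, chr1:150100031-150108227) stood at 13.1, 18.8, 22.8 and 15.03 CPM in sham mice and at 12.6, 15.9, 14.5 and 9.59 CPM in BCAS mice. The groups overlapped, with sham mouse 3 highest and BCAS mouse 4 lowest. Its log2 fold change of -0.41 had a 95% interval from -0.88 to 0.06 and did not pass the test (adjusted p = 0.154, edgeR quasi-likelihood test), so a moderate decrease is within the interval and an increase of the size of Ptgs1 is not.

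Ptgs2 is an activity-regulated gene of cortical neurons, and the 15 activity-regulated neuronal genes of a fixed list, such as the immediate early genes, were therefore set beside it. Their summed level was 839.96 to 2494 CPM in sham mice and 382 to 1299 CPM in BCAS mice, with sham mouse 3 highest, as for Ptgs2. The lowest mouse was not the same, BCAS mouse 1 for the list and BCAS mouse 4 for Ptgs2. Of the 15, 2 were called lower and none higher. Without sham mouse 3, the log2 fold change of Ptgs2 was -0.26. Their part in the Ptgs2 values was not tested.

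The balance within the cyclooxygenase pair was tested as a ratio in each mouse. The 3 pairs compared in this way were chosen with earlier results of these data known, and the p-values do not account for that choice. On a per-length scale (TPM, counts divided by gene length and scaled to a common total), Ptgs1 made up 62.5, 50.1, 46.3 and 55.1% of the summed TPM of the pair in sham mice, against 91.6, 74.7, 82.1 and 88.4% in BCAS mice. Every BCAS mouse was above every sham mouse, and the mean share went from 53.5 ± 6.98% to 84.2 ± 7.46% (SD, n = 4 each). The log2 ratio of Ptgs1 to Ptgs2 was 2.33 higher in BCAS mice (exact two-sided permutation test over 70 arrangements, p = 0.0286, the smallest that 4 against 4 can give; adjusted over 3 ratios, 0.0429).

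Among the 4 terminal synthases, Tbxas1 and Hpgds had the largest fold changes and Ptgds the smallest. Tbxas1 (ENSMUSG00000029925.13, chr6:38875404-39084585), the thromboxane A2 synthase, stood at 2.90, 3.68, 4.06 and 3.14 CPM in sham mice and at 70.4, 15.8, 36.4 and 38.3 CPM in BCAS mice. The mean rose from 3.44 ± 0.53 to 40.2 ± 22.6 CPM. On the log2 scale the fold change was 3.54 (SE 0.42, adjusted p = 0.0019, edgeR quasi-likelihood test), the largest of the 10 genes. Hpgds (ENSMUSG00000029919.5, chr6:65117293-65144908), the hematopoietic prostaglandin D2 synthase of microglia, macrophages and mast cells, was at 12.4, 10.9, 12.5 and 12.4 CPM in sham mice. In BCAS mice it was at 140.3, 39.0, 87.5 and 85.8 CPM. Sham mice were thus close together whereas BCAS mice spread widely, and the log2 fold change was 2.87 (SE 0.33, adjusted p = 0.0018, edgeR quasi-likelihood test).

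Ptgds (ENSMUSG00000015090.13, chr2:25466709-25470046), the lipocalin-type prostaglandin D2 synthase of the meninges, choroid plexus and oligodendrocytes, stood at 650.2, 721, 668 and 628 CPM in sham mice. In BCAS mice it was at 1205, 1124, 1308 and 1642 CPM, so that the groups did not overlap and the highest mouse was BCAS mouse 4. The log2 fold change was 0.98 (SE 0.14, adjusted p = 0.0029, edgeR quasi-likelihood test), past the p threshold but not the fold threshold. Ptgds was the most abundant of the 10 genes in each group, with 1705 ± 99.3 TPM in sham mice and 3352 ± 626 TPM in BCAS mice. Of the marker lists for its known sources, 9 of 10 leptomeningeal fibroblast genes were called higher (summed 105 to 134 CPM in sham mice, 229 to 1022 CPM in BCAS mice), and 0 of 10 oligodendrocyte genes and 0 of 7 tested choroid plexus genes were called. The leptomeningeal sum was highest in BCAS mice 1 and 3 and lower in BCAS mouse 4, where Ptgds was highest, and its part in the result was not tested. Sham mouse 3 stood apart with 793 CPM of choroid plexus genes against 19.1 to 53.1 CPM in the other sham mice, and the Ptgds log2 fold change was 0.98 without it.

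The balance between the D2 synthases differed between the groups. Hpgds made up 0.487, 0.387, 0.477 and 0.503% of the summed TPM of the pair in sham mice, against 2.90, 0.882, 1.69 and 1.32% in BCAS mice. The groups did not overlap, and Ptgds made up nearly the whole of the sum in every mouse. The log2 ratio of Hpgds to Ptgds was 1.76 higher in BCAS mice (exact two-sided permutation test, p = 0.0286; adjusted over 3 ratios, 0.0429).

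**Figure D2:**
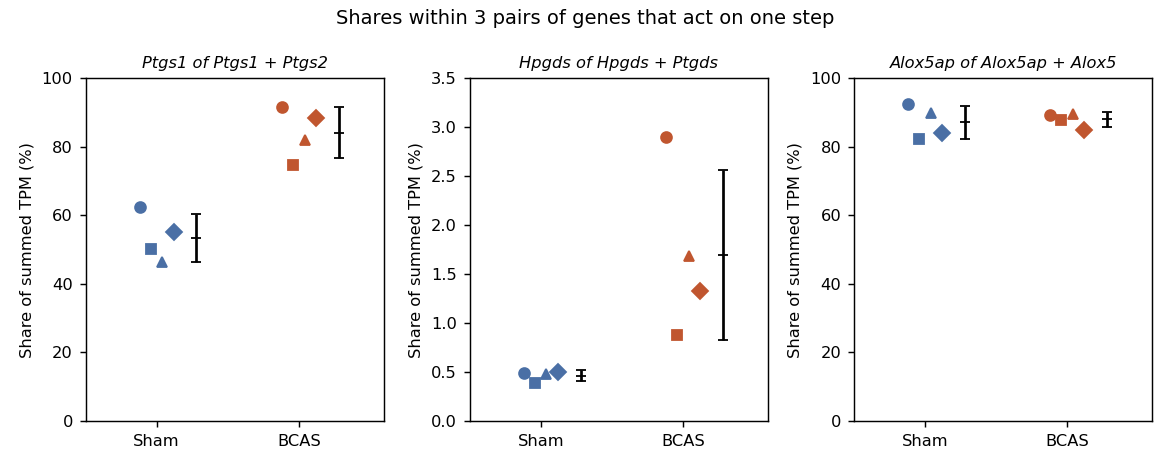
Share of the first gene in the summed TPM of each pair, in percent, in every sham (blue) and BCAS (orange) mouse, with the mean ± SD beside the points (n = 4 each; shapes as mouse numbers; the middle axis ends at a few percent). The Ptgs1 and Hpgds shares did not overlap between groups, whereas the Alox5ap share did.

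Ptges (ENSMUSG00000050737.13, chr2:30889471-30929863), the inducible microsomal prostaglandin E2 synthase that commonly acts with Ptgs2, rose least among the called genes. It stood at 5.91, 7.11, 3.95 and 5.67 CPM in sham mice and at 20.5, 7.31, 14.96 and 12.5 CPM in BCAS mice. BCAS mouse 2 was barely above sham mouse 2. The log2 fold change was 1.29 (SE 0.31, adjusted p = 0.0163, edgeR quasi-likelihood test). Ptger4 (ENSMUSG00000039942.15, chr15:5206661-5244187), the EP4 receptor for prostaglandin E2, was at 2.10, 1.37, 2.06 and 1.57 CPM in sham mice and at 18.6, 3.09, 12.9 and 8.39 CPM in BCAS mice. All BCAS mice lay above all sham mice, and the log2 fold change was 2.59 (SE 0.49, adjusted p = 0.0073, edgeR quasi-likelihood test). Other genes on the opposite strand cover 16.5% of the exon bases of Ptger4, and the counting used no strand.

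All 3 leukotriene genes among the 10 were called higher, against 11.0% of all tested genes, although Alox5 passed the low-count filter with the help of the BCAS mice. Alox5 (ENSMUSG00000025701.12, chr6:116410077-116461178), the 5-lipoxygenase that oxidises arachidonic acid towards leukotriene A4, had 8, 15, 12 and 12 counts in sham mice and 159, 32, 66 and 71 counts in BCAS mice. The means were 0.70 ± 0.20 and 4.02 ± 2.21 CPM, and the log2 fold change was 2.52 (SE 0.45, adjusted p = 0.0059, edgeR quasi-likelihood test). Alox5 was the lowest of the 10 genes per length in sham mice, at 0.72 ± 0.20 TPM. Alox5ap (ENSMUSG00000060063.9, chr5:149264767-149288153), the membrane protein FLAP that presents arachidonic acid to Alox5, was at 1.93, 1.498, 2.12 and 1.33 CPM in sham mice and at 20.5, 4.12, 10.8 and 7.57 CPM in BCAS mice. The fitted log2 fold change was 2.64 (SE 0.47, adjusted p = 0.0056, edgeR quasi-likelihood test). The Alox5ap share of the summed TPM of the pair was 87.2 ± 4.81% in sham mice and 88.0 ± 2.18% in BCAS mice. The shares overlapped, and the difference in their log2 ratio was 0.07 (exact two-sided permutation test, p = 0.83). Ltc4s (ENSMUSG00000020377.15, chr11:50236461-50238616), which joins glutathione to leukotriene A4 to make leukotriene C4, was at 1.53, 1.498, 2.35 and 1.81 CPM in sham mice and at 20.4, 4.43, 7.18 and 11.3 CPM in BCAS mice. Its log2 fold change was 2.59 (SE 0.45, adjusted p = 0.0056, edgeR quasi-likelihood test). Opposite-strand genes cover 13.3% of the exon bases of Alox5ap and 26.4% of those of Ltc4s, and their reads cannot be told apart here. On the log2(CPM + 1) scale with limma, which understates changes of low genes, the log2 fold changes of these 3 genes and of Ptger4 were smaller, from 1.46 to 1.93, and all 4 passed both thresholds.

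The order of the genes by TPM changed between groups. In sham mice it ran Ptgds, Ptgs1, Ptgs2, Hpgds, Ltc4s, Ptges, Alox5ap, Tbxas1, Ptger4, Alox5, and the ranges over mice were apart only between Ptgds and Ptgs1, between Ptgs2 and Hpgds and between Alox5ap and Tbxas1. In BCAS mice it ran Ptgds, Ptgs1, Hpgds, Ltc4s, Alox5ap, Tbxas1, Ptges, Ptgs2, Ptger4, Alox5. There, only the ranges of Ptgds and Ptgs1 were apart, and those of the other neighbours overlapped. Ranges over mice do not compare genes within a mouse. In every BCAS mouse, Ptgs1 was above Hpgds, Hpgds above Ltc4s, Alox5ap above Tbxas1 and Ptger4 above Alox5. The order of the remaining neighbours below Ptgs1 varied between BCAS mice. Ptgs2 went from 16.1 ± 4.35 TPM, next below Ptgs1, to 12 ± 2.59 TPM, below Ptges.

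The called genes shared a pattern over the BCAS mice. In all 8, BCAS mouse 1 was highest and BCAS mouse 2 was lowest, and the difference between these mice was 1.49 to 2.58 on the log2 scale. Relative to the sham mean, the median log2 level of the called genes was 3.45, 1.26, 2.50 and 2.35 in BCAS mice 1 to 4. This order was not particular to these genes, and its share over all tested genes was not counted. The means of the microglial, leptomeningeal fibroblast, astrocyte and endothelial marker lists ran the same way, and the pan-neuronal mean the opposite way. Over all tested genes, BCAS mice 1 and 2 were the furthest apart (root-mean-square log2 difference 0.94). The coefficient of variation over BCAS mice was 39.7 to 65.5% for the 8 called genes, 17.2% for Ptgds and 20.7% for Ptgs2, and that over sham mice was 5.95 to 28.2% for the 10 genes. Ptgds was also lowest in BCAS mouse 2 but highest in BCAS mouse 4, and Ptgs2 was highest in BCAS mouse 2 and lowest in BCAS mouse 4. Without BCAS mouse 1 or without BCAS mouse 2, the same 8 genes passed both thresholds, and Ptgds joined them in each case.

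**Figure D3:**
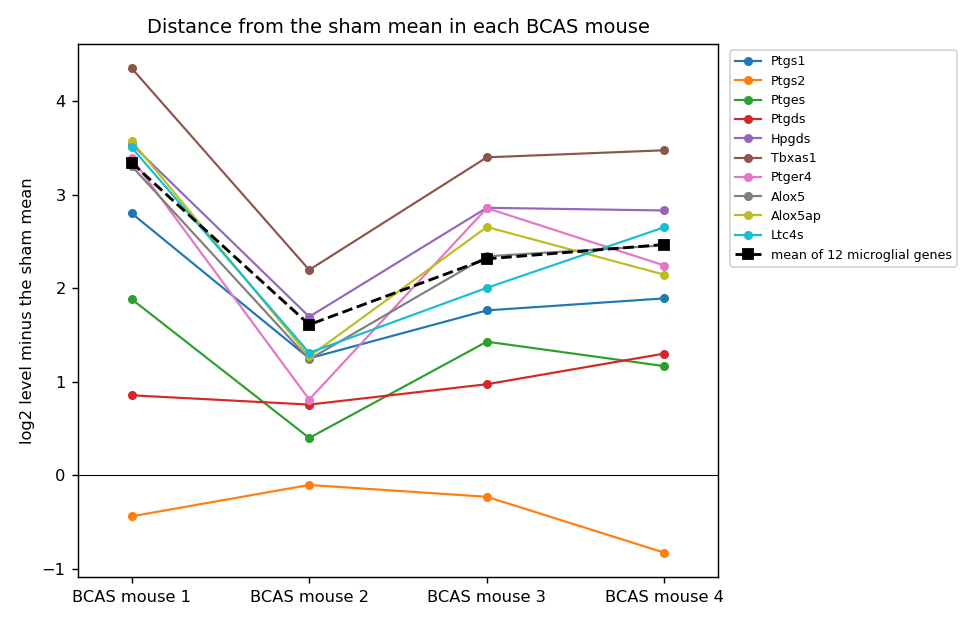
Log2 level of each gene in every BCAS mouse minus its sham mean, as coloured lines, with the mean of the 12 microglial identity genes as a dashed black line; the lines join mice for reading and the mouse numbers have no order. The called genes were highest in BCAS mouse 1 and lowest in BCAS mouse 2, as was the microglial mean, whereas Ptgds was highest in BCAS mouse 4 and Ptgs2 in BCAS mouse 2.

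Markers of microglia and other immune cells moved with these genes. All 12 microglial identity genes were called higher, with a median log2 fold change of 2.62, and their summed level was 421 to 507 CPM in sham mice and 1641 to 5961 CPM in BCAS mice. Of the border-associated macrophage genes, 6 of 8 were called higher (17.6 to 21.9 CPM in sham mice, 36.3 to 175 CPM in BCAS mice). Of 11 monocyte and neutrophil genes, 3 were tested and all 3 were called higher (5.91 to 10.9 CPM, and 58.8 to 290.3 CPM, summed over the 11). The other 8 did not pass the filter, and 4 of the 11 had at most 3 counts in every sham mouse. Genes this low in sham mice can pass the filter through the BCAS mice, so the 3 calls are no support for a rise of this list. The part of these immune cell lists in the rise of the pathway genes was not tested. Mast cell genes, of interest because mast cells express Hpgds and Ltc4s, summed to 0 to 0.06 CPM in sham mice and 0 to 1.96 CPM in BCAS mice, with 6 of the 8 at 0 in every sham mouse, and 0 were tested. Their part in the Hpgds and Ltc4s values was not tested. Of the platelet genes, which bear on Tbxas1 and Ptgs1, 0 of 2 tested were called, and 0 of 5 hemoglobin genes were called, although 2 of the 5 passed the adjusted p, higher, and their summed level was 59.3 to 80.8 CPM in sham mice, against 94.5 to 124 CPM in BCAS mice. Neuronal genes were present in every library, at 10968 to 12588 CPM in sham mice and 4292 to 9391 CPM in BCAS mice for 12 pan-neuronal genes, of which 8 passed the adjusted p, all lower, and 1 also passed the fold threshold. Of the other lists, 7 of 9 astrocyte genes passed the adjusted p, all higher, of which 2 also passed the fold threshold, and their summed level was 4752 to 5489 CPM in sham mice, against 6326 to 9554 CPM in BCAS mice. Of the endothelial genes, 0 of 8 were called, and 2 passed the adjusted p, higher. The part of the neuronal, astrocyte, endothelial and hemoglobin lists in the result was not tested.

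Set against the mean of the 12 microglial genes in the same mouse, the 10 genes differed among themselves. Tbxas1 exceeded the microglial mean by 0.92 ± 0.23 log2 units over BCAS mice and Hpgds exceeded it by 0.30 ± 0.20. Alox5ap, Ltc4s, Alox5 and Ptger4 were within 0.11 of it on average, which is less than their spread over sham mice. Ptgs1 was at -0.51 ± 0.10, Ptges at -1.21 ± 0.24, Ptgds at -1.46 ± 0.71 and Ptgs2, the furthest from it, at -2.83 ± 0.90 relative to the microglial mean. These differences are descriptive, with each value relative to the sham mean (n = 4).

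The rest of the pathway was followed in 63 further genes, of which 49 passed the filter and were tested. Of these, 10 were called higher and 1 was called lower (22.4%, with 12.2% over all tested genes), and their median log2 fold change was 0.18. The count includes Ptgir, Cyp4f18 and Pla2g2d, whose sham counts were all below 10, and Cysltr1, with 7 counts in sham mouse 1, which passed the filter with the help of the BCAS mice, so the share is no support for a rise of the pathway. With at least 10 counts required in every library, 6 were called higher and 1 lower. The other prostanoid synthases, among them the constitutive prostaglandin E2 synthases and prostacyclin synthase, had 0 of 6 called. At the adjusted p alone, 1 of these 6 was higher and 1 was lower. The genes of arachidonic acid release had 3 of 16 called higher, with a median log2 fold change of 0.03. At the adjusted p alone, 5 of these 16 were higher and 2 were lower. Of the transport and breakdown genes, 1 of 6 was called higher, Hpgd, the 15-hydroxyprostaglandin dehydrogenase that inactivates prostaglandins. Its mean went from 6.76 ± 0.66 to 24.9 ± 9.16 CPM, a log2 fold change of 1.88 (adjusted p = 0.0025, edgeR quasi-likelihood test). Among the phospholipases, Pla2g2d had 9, 8, 8 and 6 counts in sham mice and 33, 26, 45 and 18 counts in BCAS mice (log2 fold change 1.74, adjusted p = 0.0086, edgeR quasi-likelihood test). Pla2g4a, the cytosolic phospholipase A2 of the main route of arachidonic acid release, was named after its values were seen and had a log2 fold change of 1.51 (adjusted p = 0.0122, edgeR quasi-likelihood test).

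The receptors differed among themselves. Of the 7 tested prostanoid receptors beside Ptger4, 3 were called higher: Ptgir, the prostacyclin receptor, Ptgdr, the DP1 receptor for prostaglandin D2, and Ptgfr, the prostaglandin F2 alpha receptor. Over all tested genes the share called higher was 11.0%, and Ptgir passed the filter with the help of the BCAS mice. Ptgir had 2, 4, 4 and 4 counts in sham mice, against 49, 17, 25 and 25 counts in BCAS mice, and Ptgdr had 17, 12, 27 and 10 and then 157, 34, 123 and 40. Their log2 fold changes were 2.76 (adjusted p = 0.0030) and 2.17 (adjusted p = 0.0181, edgeR quasi-likelihood test), both on low sham counts, and that of Ptgfr was 1.23 (adjusted p = 0.0211). Opposite-strand exons cover 22.1% of the exon bases of Ptgdr and 71.0% of those of Ptger1. The other E2 receptors, Ptger1, Ptger2 and Ptger3, had log2 fold changes of 0.49, 0.91 and -0.23, and the thromboxane receptor Tbxa2r one of 0.18, and none passed the test (adjusted p from 0.290 to 0.722, edgeR quasi-likelihood test). Tbxa2r stood at 1.58 ± 0.12 CPM in sham mice and at 1.78 ± 0.86 CPM in BCAS mice, beside the rise of the thromboxane synthase.

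In the leukotriene branch, Cysltr1, a receptor for cysteinyl leukotrienes, had 7, 18, 22 and 18 counts in sham mice and 228, 53, 77 and 88 counts in BCAS mice. Its log2 fold change was 2.49 (adjusted p = 0.0076, edgeR quasi-likelihood test), and it was the only called gene of the 4 tested leukotriene and lipoxin receptors. Cysltr2 had a log2 fold change of 0.77 and overlapping groups. Of the other leukotriene and lipoxin enzymes, 2 of 6 were called higher. Cyp4f18, which inactivates leukotriene B4 in myeloid cells, had 7, 4, 1 and 9 counts in sham mice and 339, 46, 157 and 76 counts in BCAS mice. Its log2 fold change of 4.56 (SE 0.72, adjusted p = 0.0038, edgeR quasi-likelihood test) was the largest of the 49, on few sham counts. Of the other lipoxygenases, 1 of 4 was called, Alox12b, an epidermal 12R-lipoxygenase, which was lower, with 111, 73, 68 and 76 counts in sham mice, against 28, 54, 43 and 31 counts in BCAS mice (log2 fold change -1.27, adjusted p = 0.0131, edgeR quasi-likelihood test).

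**Figure D4:**
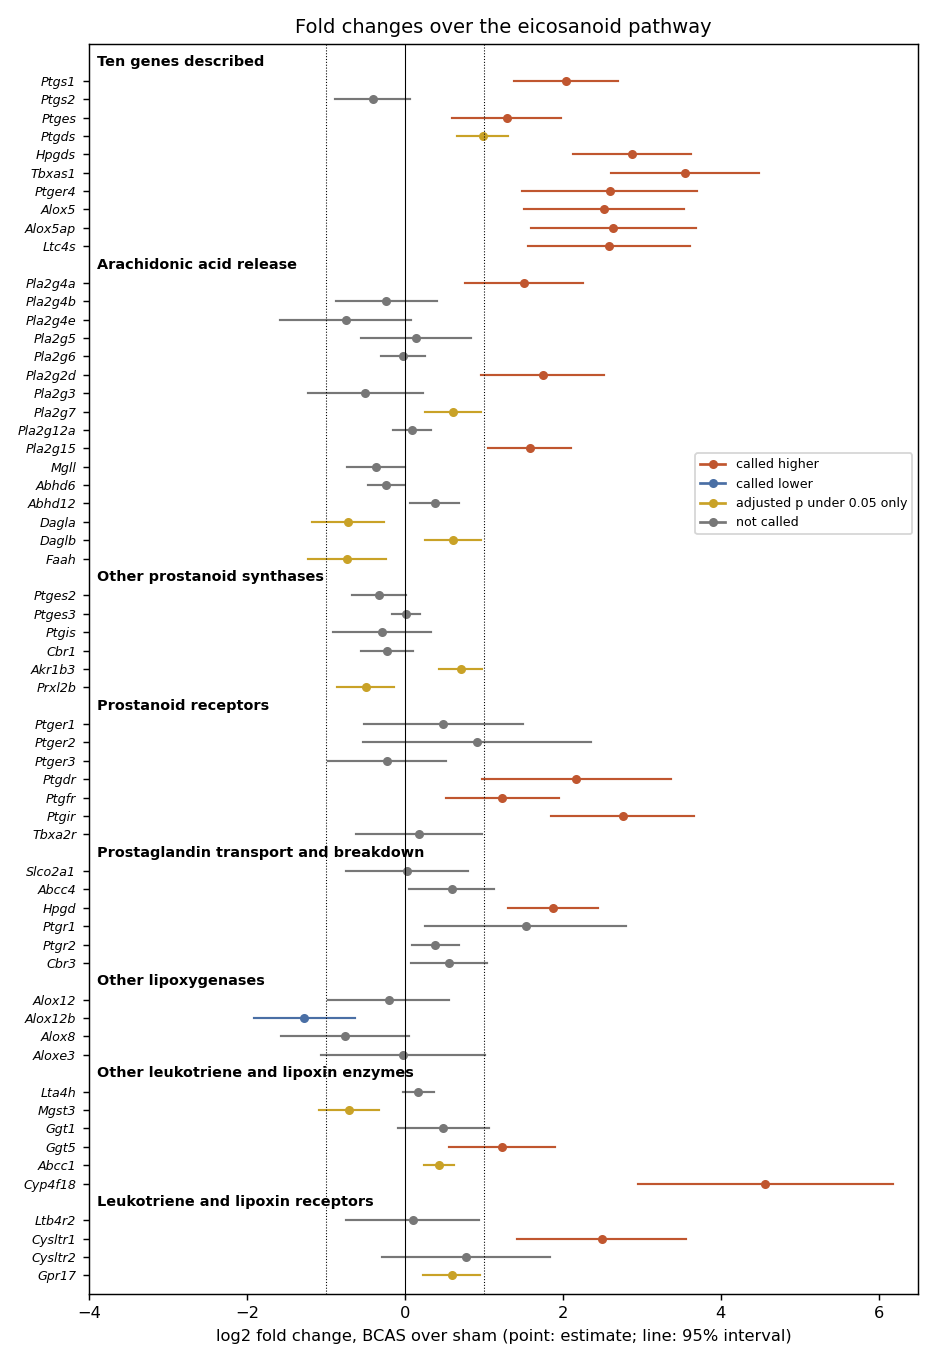
Log2 fold change of BCAS over sham mice (points) with its 95% interval (lines) for the 10 genes and the 49 other tested pathway genes, grouped by role; dotted lines mark the fold threshold. Of the 10 genes, 8 were called higher, and 10 of the 49 others were called higher and 1 lower.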

How the data were processed

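RNA-seq libraries (NEBNext Ultra kit, paired reads) came from 4 sham and 4 BCAS mice, grouped by the labels, 1 mouse each. The authors trimmed the reads (Trim Galore), aligned them to mm10 with HISAT2 and counted read pairs per gene, and the deposited files hold these counts without normalization. The file headers name featureCounts 2.0.1 with GENCODE vM20 and no strand option, whereas the submitters' processing notes name featureCounts 1.6.3. Symbols matched 54723 of 54752 gene IDs, and 29 had none. Coordinates are from the file headers' annotation on mm10. Counting without strand cannot separate overlapping genes on opposite strands.

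Counts were tested in edgeR 4.0.16 (R 4.3.3; TMM factors 0.949 to 1.05; filterByExpr, minimum count 10, minimum total 15; quasi-likelihood F-test, Benjamini-Hochberg adjustment). A count of 3 in the smallest library equals 0.187 CPM. Intervals and floors cover the spread between these mice or counting error only. TPM was computed from counts and gene lengths in the files. The 3 ratios used a prior count of 0.5 and an exact permutation test. The procedures were tested on simulated data.

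The 10 genes, the lists and the tests were chosen with earlier results of these data known. Named are the 10 genes, the called pathway genes with the 6 largest changes per direction and the receptors. Pla2g4a, Pla2g15 and the letters searched upstream of genes were added after values were seen. Alternatives were other scalings, filters and tests (DESeq2 1.42.0, limma 3.58.1), a replicate block and leaving out each mouse. Figures were drawn with matplotlib 3.10.9.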

Additional observations from a re-analysis of the deposited data

Results flagged for a closer look

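In groups of 4 mice, a single value was set apart where its gap to the nearest other value exceeded 0.83 of the group's range. Of 40 groups checked, 2 held such a value, and chance gives about 1 in 20. Hpgds was at 10.9 CPM in sham mouse 2, and the nearest sham mouse was at 12.4 CPM. Ptgir was at 0.114 CPM (2 counts) in sham mouse 1, and the nearest sham mouse was at 0.229 CPM (4 counts).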

How the results depend on the processing

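Of 179 recomputed values, 174 kept their direction and side of the thresholds, and 5 gained a call, all of them Ptgds: with library size alone, with at least 10 counts in every library, and without sham mouse 2, BCAS mouse 1 or BCAS mouse 2. Alox5, with 8 counts in sham mouse 1, was not tested with at least 10 counts in every library. On log2(CPM + 1) with limma, the log2 fold changes of 4 low genes were over 1.5 times smaller in fold, at 1.46 for Alox5, 1.87 for Ptger4, 1.93 for Alox5ap and 1.904 for Ltc4s. The adjusted p of Ptges reached 0.0485 without sham mouse 4 (edgeR). Leaving out a mouse gave 8 to 9 called genes of the 10, 8 to 14 of the other pathway genes and 1644 to 2967 of all genes. The lower calls among all genes moved more, from 86 without sham mouse 1 to 559 without BCAS mouse 2, against 220 with all mice. The other pathway genes had 7 calls with at least 10 counts in every library, 6 with limma on log2(CPM + 1) and 20 at the adjusted p alone, and all genes had 5490 calls at the adjusted p alone. The log2 ratio differences ranged from 2.02 to 2.65 for Ptgs1 to Ptgs2 and from 1.45 to 2.04 for Hpgds to Ptgds when a mouse was left out, where the smallest possible exact permutation p is 0.0571. For Alox5ap to Alox5 they ranged from -0.13 to 0.32 and were below 0 without sham mouse 2 (-0.13), without sham mouse 4 (-0.07) and without BCAS mouse 3 (-0.0049).

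The mouse numbers do not pair the samples: same-numbered mice correlated at -0.110 to -0.0004 in their deviations from the group means, and 0 of 4 sham mice correlated best with their own number. With the replicate number as a block, 8 of the 10 genes, 11 other pathway genes and 1809 of all genes were called. The log2 ratio differences were 2.33 and 1.76 with the block, where the smallest possible exact permutation p is 0.125. Depth limits mainly the genes with few sham counts, such as Alox5, Ptgir and Cyp4f18.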
